A study of Homo sapiens with 12 samples.

Results

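The Forkhead box (FOX) genes were examined for the repressive histone mark H3K27me3 and for lysine succinylation in a human liver cancer line. The members were the RefSeq protein-coding genes of GRCh38 on chromosomes 1 to 22 and X whose symbol is FOX, a letter from A to S and a digit. There were 45 of them among 19974 protein-coding genes on these chromosomes. Each gene was taken as a window, its gene body with 5 kb on either side, and its value in a library was the share of the window's bases under peaks, called cover here.

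The data were CUT&Tag peak lists. CUT&Tag uses an antibody to bring a transposase to chromatin, which cuts and tags the DNA near the antibody's target. The cells were HepG2/C3A, a hepatocellular carcinoma line that grows as an epithelium. One set of cultures received 10 mM sodium succinate in the medium for 48 hours and the control set did not. The antibodies were against H3K27me3 and, as a pan-succinyllysine antibody (Ksu), against succinylated lysine whatever protein carries it. Of 12 samples listed, 8 had a peak list that was used, 2 labelled biological replicates for each antibody and treatment. No value below is set against an antibody background, because the 4 IgG samples were not used here. All values come from a single cell line, and nothing in the labels says how the replicate cultures were separated, so the spread between them may be partly technical.

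FOX proteins are transcription factors that share the forkhead (winged helix) DNA-binding domain. FOXA1, FOXA2 and FOXA3 are pioneer factors of the liver: they bind closed chromatin at liver enhancers and are needed for hepatocyte identity. Most other members act in other lineages, in mesoderm, vessels, gonads, the nervous system and ectodermal organs, and a few, such as the FOXO and FOXK genes, are active in most cells. H3K27me3 is laid down by Polycomb repressive complex 2 and covers developmental transcription factor genes in cells where they are silent. Succinyllysine is an acyl mark on lysine derived from succinyl-CoA, and it also occurs on many proteins that are not histones.

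The lists differed in size. H3K27me3 lists held 5531 to 19133 peaks and covered 117 to 199 Mb, and Ksu lists held 76702 to 629903 peaks and covered 80.4 to 329 Mb. The number of reads is not known for either. The lowest total signal of a listed peak, counted in the smallest step of that library's signal and called its floor, ranged 6.36-fold between H3K27me3 libraries and 183-fold between Ksu libraries. Cover in a library therefore moves with how much was listed there, and results are also given for equal numbers of peaks and for peaks above a common floor. The liver origin was checked on 10 hepatocyte genes (ALB, APOA1, AFP and others), of which none had an H3K27me3 peak in any library. Since 69.5% of all gene windows also had none, this says little about origin. Of 10 genes of other lineages, 5 had one in every library, among them OLIG2 at 100% of the window in each, and PTPRC of the blood genes had none.

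Promoter sequence is shown for 6 members that stand for the patterns described below. FOXA1 and FOXA3 are hepatic genes with no H3K27me3 peak. FOXQ1, FOXF2 and FOXC1 are neighbours on chromosome 6, of which FOXQ1 had no peak and the others had peaks in all 4 libraries. FOXL3 had the largest difference between treatments. Each line holds the 250 bases upstream of the gene's start, 5′ to 3′ on the gene's strand, from RefSeq on GRCh38.p14, with every CG dinucleotide in capitals. The positions are chr14:37595250-37595499 (minus strand) for FOXA1, chr19:45864076-45864325 for FOXA3, chr6:1311848-1312097 for FOXQ1, chr6:1389326-1389575 for FOXF2, chr6:1609665-1609914 for FOXC1 and chr7:289920-290169 for FOXL3, all on the plus strand but the first.
FOXA1: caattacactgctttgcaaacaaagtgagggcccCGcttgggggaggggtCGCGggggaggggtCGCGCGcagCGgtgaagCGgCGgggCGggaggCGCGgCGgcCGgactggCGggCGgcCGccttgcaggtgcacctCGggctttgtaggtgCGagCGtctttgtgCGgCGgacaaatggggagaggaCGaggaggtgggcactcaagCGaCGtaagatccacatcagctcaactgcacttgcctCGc
FOXA3: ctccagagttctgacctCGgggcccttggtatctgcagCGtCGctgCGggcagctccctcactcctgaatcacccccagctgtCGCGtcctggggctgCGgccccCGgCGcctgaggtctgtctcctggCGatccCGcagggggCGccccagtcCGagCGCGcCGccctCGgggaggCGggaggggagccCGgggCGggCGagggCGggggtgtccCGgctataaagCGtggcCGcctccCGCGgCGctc
FOXQ1: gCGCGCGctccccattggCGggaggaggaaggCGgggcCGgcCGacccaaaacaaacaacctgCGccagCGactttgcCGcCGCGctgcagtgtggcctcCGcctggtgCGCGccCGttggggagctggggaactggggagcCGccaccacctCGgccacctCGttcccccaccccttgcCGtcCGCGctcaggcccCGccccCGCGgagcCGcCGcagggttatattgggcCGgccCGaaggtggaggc
FOXF2: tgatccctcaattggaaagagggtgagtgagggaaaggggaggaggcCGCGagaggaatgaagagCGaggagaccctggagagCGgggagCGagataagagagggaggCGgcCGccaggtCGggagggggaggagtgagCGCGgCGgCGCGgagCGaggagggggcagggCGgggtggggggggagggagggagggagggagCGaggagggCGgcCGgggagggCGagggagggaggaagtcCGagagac
FOXC1: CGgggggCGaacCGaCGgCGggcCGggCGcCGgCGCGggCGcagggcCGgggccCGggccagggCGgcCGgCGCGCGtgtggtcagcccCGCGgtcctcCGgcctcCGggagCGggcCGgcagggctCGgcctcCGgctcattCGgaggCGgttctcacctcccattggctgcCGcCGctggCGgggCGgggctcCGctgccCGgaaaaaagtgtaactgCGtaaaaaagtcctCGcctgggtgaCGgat
FOXL3: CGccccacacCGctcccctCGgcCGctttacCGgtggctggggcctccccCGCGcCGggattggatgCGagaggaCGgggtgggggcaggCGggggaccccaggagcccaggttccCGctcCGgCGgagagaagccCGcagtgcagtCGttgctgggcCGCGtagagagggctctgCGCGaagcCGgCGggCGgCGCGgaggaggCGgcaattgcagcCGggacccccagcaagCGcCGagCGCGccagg
All 6 are rich in CG: FOXA1 has 26 CG dinucleotides, FOXA3 28, FOXQ1 29, FOXF2 20, FOXC1 37 and FOXL3 31. The genes with H3K27me3 over this stretch in every library (FOXF2, FOXC1) and those with it in none (FOXA1, FOXA3, FOXQ1) thus overlap in CG number.

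H3K27me3 peaks overlapped the windows of 17 of the 45 FOX genes in all 4 libraries (37.8%), against 14.7% of all gene windows. A further 19 had no peak in any library (42.2%, against 69.5% of all windows), 4 had one in 3 libraries and 5 in 1 library. Mean cover over the 4 libraries was 50% or more for 18 members, against 8.59% of all windows. Per library, 25, 18, 22 and 20 members were overlapped in control replicates 1 and 2 and succinate replicates 1 and 2, where the shares of all windows were 28.4, 16.1, 24 and 18.7%. FOX windows are short, with a median of 14930 bp against 34164 bp for all genes. The counts come from single peaks that can span several windows, so neighbouring members are not independent of each other.

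**Figure D1:**
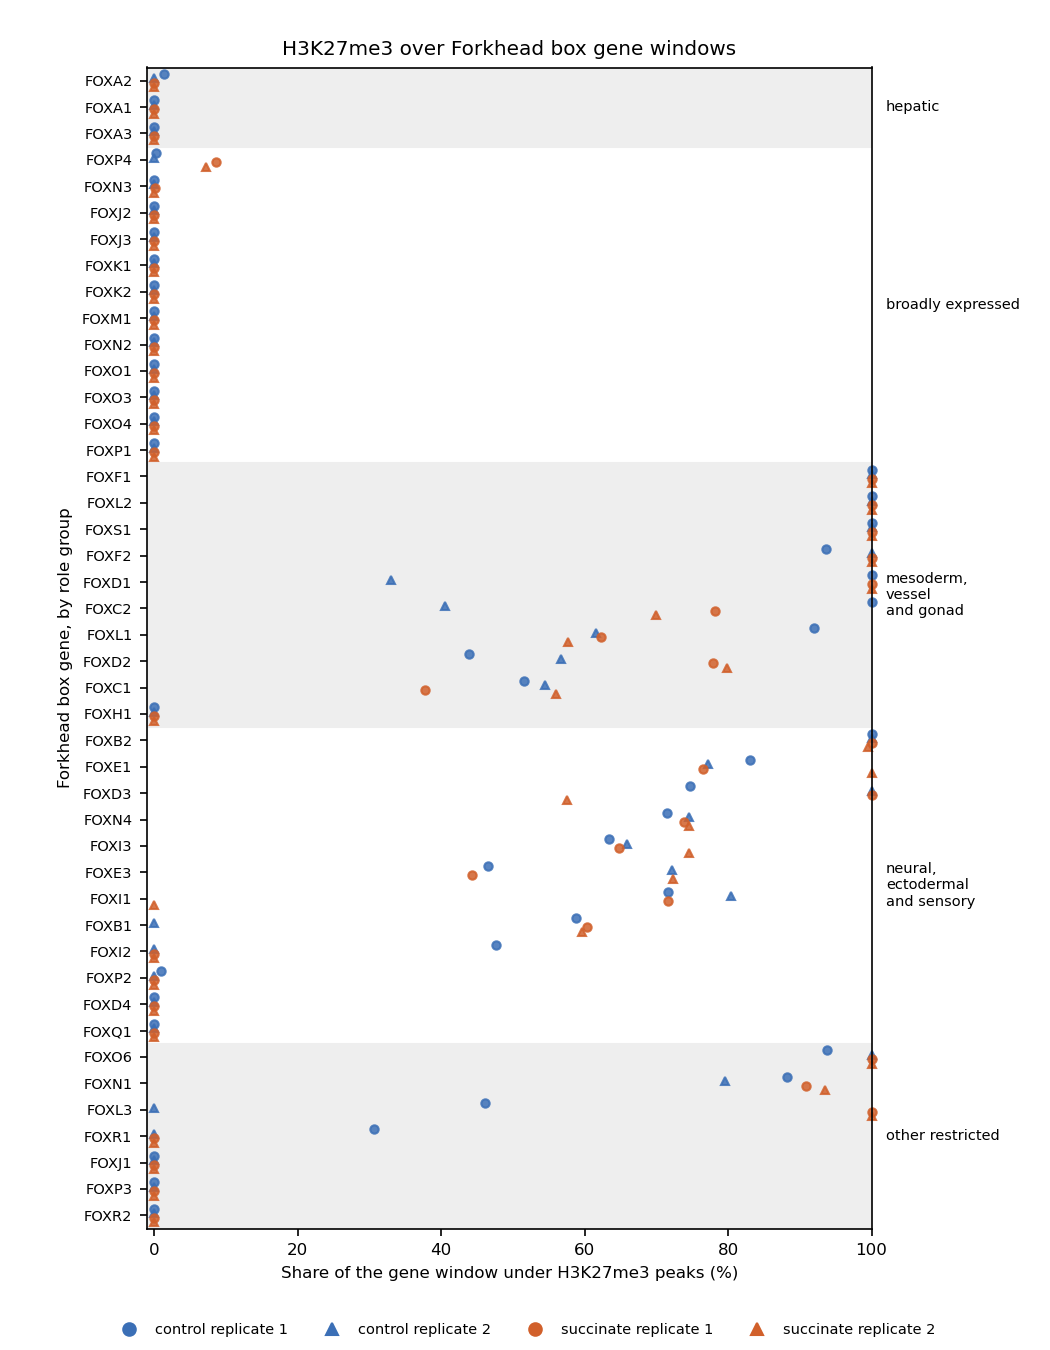
Each row is a FOX gene (1 member is not drawn), grouped by its known role, and each point is the share of its window (gene body and 5 kb on either side) under H3K27me3 peaks in 1 library, with circles for replicate 1, triangles for replicate 2, blue for control and orange for succinate. The hepatic and the broadly expressed genes sit at 0 or below 10%, and 9 of the 10 mesoderm, vessel and gonad genes lie between 33.1 and 100%.

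Among the genes of mesoderm, vessels and gonads, 9 of 10 had H3K27me3 peaks in all 4 libraries, and the median of their mean cover over libraries was 77.7%. FOXF1, which directs the mesenchyme of lung and gut, FOXL2, which maintains the ovary, and FOXS1, a gene of pericytes and sensory neurons, were covered over 100% of the window in every library. FOXF2, the close relative of FOXF1, was covered over 93.6 and 100% in control and 100 and 100% in succinate. FOXC1 and FOXC2 act in vessels, lymphatics and the eye. FOXC1 had 51.6 and 54.5% in control and 37.8 and 56.0% in succinate, and FOXC2 had 100 and 40.6% in control and 78.2 and 70.0% in succinate. FOXL1, of the gut mesenchyme, had 92.0 and 61.6% in control and 62.3 and 57.7% in succinate. FOXH1, the partner of SMAD proteins in Nodal signalling, was the exception, with no peak in any library. Averaged over the group, the windows were covered over 78.1 and 64.7% in control and 75.6 and 76.3% with succinate, and all gene windows over 11.0, 7.49, 10.7 and 9.36%.

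The neural, ectodermal and sensory genes were divided. Peaks overlapped 6 of 13 in all 4 libraries, 4 in 1 to 3 libraries and 3 in none. FOXB2, expressed in the embryonic brain, was covered over 100% of its window in 3 libraries and 99.4% in succinate replicate 2. FOXE1, the thyroid and palate gene, had 83.1 and 77.2% in control and 76.5 and 100% in succinate. FOXD3 (neural crest), FOXE3 (lens), FOXI3 (ectodermal placodes) and FOXN4 (retina and spinal cord) were the others with peaks throughout, at 44.3 to 100%. FOXQ1 and FOXD4 were among those with none. FOXD4 has near-identical copies, and reads from such copies may not be placed, so its empty window is uncertain.

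Among the other genes of restricted expression, 2 of 7 had peaks in all 4 libraries. FOXN1, the thymic epithelium gene, was covered over 88.3 and 79.5% in control and 90.8 and 93.6% in succinate. FOXO6, the FOXO member best known from brain, was covered over 93.8 and 100% in control and 100 and 100% in succinate. FOXJ1 (motile cilia), FOXP3 (regulatory T cells) and FOXR2 had no peak in any library. The absence of a peak was therefore not limited to genes used in liver: FOXP3 and FOXR2 belong to other tissues and were as free of listed peaks as FOXA1.

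The broadly expressed members had little H3K27me3, as most windows of all genes did. None of the 12 had a peak in all 4 libraries (against 14.7% of all windows). In 10 there was no peak in any library (83.3%, against 69.5% of all windows), a small gap for 12 genes. These were FOXO1, FOXO3 and FOXO4, targets of insulin signalling, FOXK1 and FOXK2, FOXM1, a gene of dividing cells, FOXJ2, FOXJ3, FOXN2 and FOXP1. FOXN3 had 0.138% of its long window under a peak in succinate replicate 1 only. FOXP4 had peaks in 3 libraries, described below. Mean cover of the group was at most 0.72% in any library.

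The hepatic genes had almost no H3K27me3. FOXA1 (chromosome 14, 37589552 to 37595249) and FOXA3 (chromosome 19, 45864326 to 45873797) had 0% cover in all 4 libraries. FOXA2 (chromosome 20, 22580998 to 22585490) had 1.38% in control replicate 1 and 0% in the other 3. That 1.38% was the edge of a peak of 9119 bp at 22590291 to 22599409, which holds no protein-coding gene and begins 4.80 kb from FOXA2. In the other libraries the nearest peak to FOXA2 was 15.2 kb away in control replicate 2, 95.8 kb in succinate replicate 1 and 96.0 kb in succinate replicate 2. Around FOXA1 the nearest peak was 924 to 925 kb away in every library, and around FOXA3 54.5 to 54.8 kb in 3 libraries and 83.9 kb in control replicate 2.

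Pooled over bases, the 3 FOXA windows had 0.403, 0, 0 and 0% under H3K27me3 peaks in the order above, and the other 42 FOX windows 9.59, 8.19, 9.47 and 9.26%. FOXA was lower by 9.19, 8.19, 9.47 and 9.26 percentage points. Where FOXA is at 0% the difference only restates the value of the other windows, so the shared direction is no support. The mean difference was -9.03 points. The pooled figure is set largely by gene length, since FOXP1, FOXP2 and FOXN3 hold 55.8% of the 3098 kb of FOX windows and almost no H3K27me3. Without these 3 the difference was -20.9 points, and with each window weighted equally it was -37.4. Genes are not replicates and FOXA is 3 genes, so no test was made, and 17 other FOX windows also had no peak. The 2 FOXA windows without a peak are 66.7% of the 3, against 69.5% of all windows. The liver list beside FOXA was mixed. Of 12 other liver transcription factors, 8 (HNF4A and CEBPA among them) had no H3K27me3 peak, which at 66.7% was near the 69.5% of all windows, while 3 had peaks in all 4 libraries. Among the latter, NR5A2, a nuclear receptor of bile acid synthesis, had 7.64 and 5.86% against 6.81 and 9.87%.

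The peaks over FOX genes were broad. The widest peak in each window was taken, and some windows held 2 or 3. For the 17 members marked in every library these were 16 distinct peaks in each library. Their median widths were 23.8 and 23.8 kb for the control lists, then 26.3 and 31.9 kb for the succinate lists. Taking the widest raises these values, and other marked windows were not measured in this way. Total signal was ranked among all H3K27me3 peaks of the same library. The median FOX peak stood at the 92.7 and 77.2 percentiles in control and the 83.7 and 81.2 percentiles in succinate. The lowest stood at the 56.4 and 16.1 percentiles in control and the 44.7 and 4.09 percentiles in succinate. The signal is the authors' own value per peak and was ranked only within a list. The FOXS1 peak was the strongest placed, 57.4 to 61.2 kb wide on chromosome 20 and at the 97.4 to 99.5 percentiles of total signal. It also spans DUSP15, MYLK2 and TTLL9, so this domain is not particular to FOXS1. FOXO6 lay in the widest, 86.8 kb in succinate replicate 2.

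By overlap of their windows, neighbouring members differed on chromosome 6 and not on chromosomes 16 and 1. On chromosome 6, FOXQ1, FOXF2 and FOXC1 lie along 1 stretch. FOXF2 and FOXC1 were overlapped by peaks in all 4 libraries, at 1365920 to 1421119 and 1571344 to 1610194 in succinate replicate 1. FOXQ1, an epithelial gene whose lower end lies 77.5 kb below that of FOXF2, had none, and the nearest peak was 51.1 to 62.5 kb from it. On chromosome 16, FOXF1, FOXC2 and FOXL1 were all marked. A single peak overlapped the FOXC2 and FOXL1 bodies in control replicates 1 and 2 and succinate replicate 1. Their windows also overlap, so their values are not independent. MTHFSD, which lies between FOXF1 and FOXC2, lay in the gap between the peaks. On chromosome 1, FOXE3 and FOXD2 both had peaks in all 4 libraries.

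**Figure D2:**
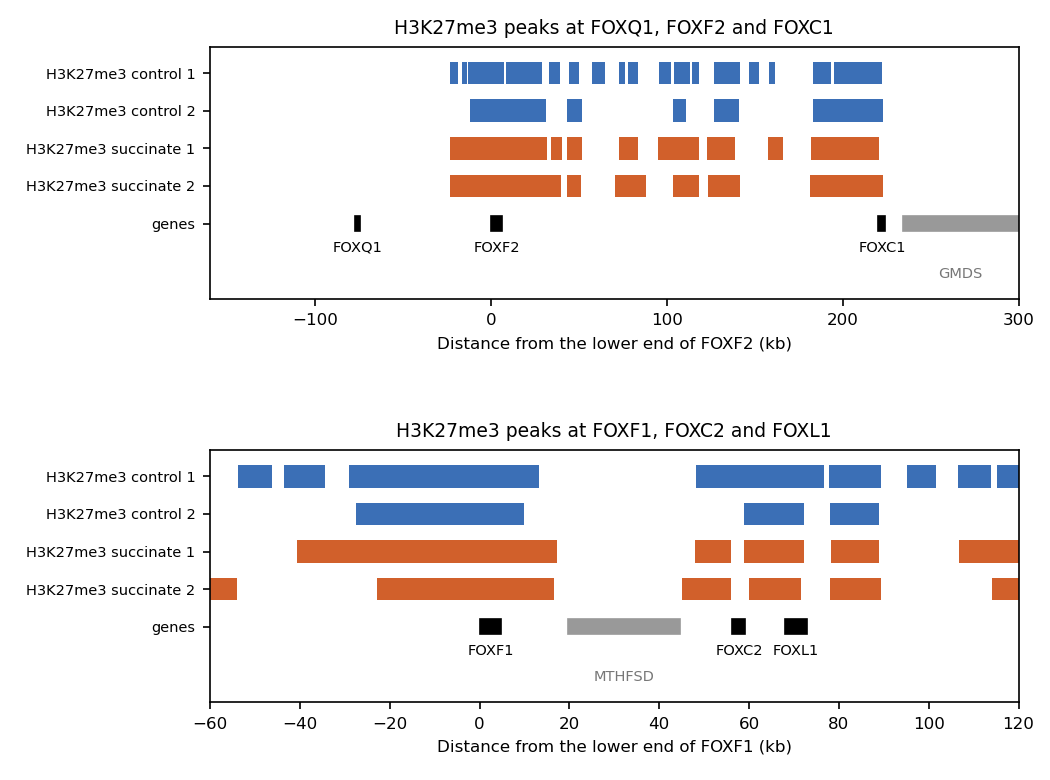
H3K27me3 peaks (bars, 1 row per library, blue for control and orange for succinate) at 2 FOX gene clusters, against the distance in kb from the lower end of FOXF2 (top) or FOXF1 (bottom), with FOX genes in black and other named protein-coding genes in grey. FOXQ1 lies 51.1 to 62.5 kb from the nearest peak while FOXF2 and FOXC1 are overlapped in every library, and MTHFSD lies between the peaks of FOXF1 and FOXC2.

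The treatments were compared next, which asks whether added succinate altered H3K27me3 at FOX genes. As a family the windows were covered over 9.45 and 8.06% of their bases in control (8.75 ± 0.981, SD, n = 2) and 9.32 and 9.11% in succinate (9.21 ± 0.147, SD, n = 2). The difference of 0.462 percentage points was below the pooled SD of 0.701, and the libraries overlapped. For all gene windows the values were 7.69, 5.01, 6.99 and 5.92%. The sign of the family difference was not stable: it was -0.232 without control replicate 2 and 1.16 without control replicate 1. It was 0.0148 over gene bodies without flanks, 0.0858 with flanks of 1 kb, 1.34 for equal numbers of peaks and 1.60 at a common floor.

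Gene by gene, both succinate libraries lay above both control libraries for 5 members (11.1%, against 6.34% of all windows) and below them for 1 (against 1.46%). The 5 were FOXL3, FOXB1, FOXD2, FOXN1 and FOXP4 and the 1 was FOXI1. Windows with no peak in any library cannot be apart, and FOX had fewer of them (42.2%, against 69.5%). Among windows marked in all 4 libraries, 2 of 17 members were higher in succinate (11.8%), against 28.5% of all such windows. The larger FOX share thus held only when windows without peaks were counted. A limma fit over the 5451 windows with a mean cover of at least 1% included 23 members. It called none of them, and none of all the windows (0%), at a Benjamini-Hochberg adjusted p under 0.05. At an unadjusted p under 0.05 there were 3 members, FOXP4, FOXD2 and FOXL3, against 5.23% of the windows tested. The median difference was 1.19 percentage points for the 23 members and 0.921 for all windows tested. With equal numbers of peaks the groups were apart for 4 members higher in succinate, against 7.84% of all windows, and 0 lower, against 1.14%. At a common floor these were 3 members, against 8.55%, and 0, against 0.546%. The limma calls depended on the control libraries: without control replicate 1 FOXD1 was called along with 1.97% of windows, and without control replicate 2 there were 6 members and 20.3% of windows.

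FOXL3 (chromosome 7, 290170 to 291488), a germ-line sex determination gene in fish that is little studied in humans, had the largest difference. Its control cover was 46.1 and 0%, its succinate cover 100 and 100%. Control replicate 2 had no peak there and control replicate 1 had a peak of 5879 bp that ended inside the gene, at 290385. The succinate libraries had peaks of 24991 and 29538 bp over the whole window. Both control libraries did have a peak just beyond the window, beginning 6.98 and 6.85 kb above the lower end of the gene, a stretch that the succinate peaks also span. With 10 kb on either side the control cover was 47.9 and 20.9%, the succinate cover 94.8 and 100%. The groups did not overlap, and the difference was 77.0 percentage points with an SE of 19.3 (limma, adjusted p = 0.785, unadjusted p = 0.0286). With equal numbers of peaks the control peak dropped out, leaving 0 and 0% against 100 and 100%. FOXL3 was then called by limma (adjusted p = 0.0113), as were 6.69% of windows tested. At a common floor the cover was the same and the adjusted p was 0.00723, with 11.1% of windows called. With the 50% of peaks of highest signal the cover was again 0 and 0% against 100 and 100%, but FOXL3 was not called (limma, adjusted p = 0.246). The call thus depended on which listed peaks were kept across all windows, not on the FOXL3 values alone. The control peak stood at the 44.4 percentile of total signal in its list and the succinate peaks at the 82.8 and 74.6 percentiles.

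FOXD2 (chromosome 1), a gene of kidney and facial mesenchyme, was also higher in both succinate libraries. Its control cover was 43.9 and 56.7%, its succinate cover 77.9 and 79.8%. The peak began at 47440140 and 47438525 in control, inside the gene, and at 47435844 and 47435597 in succinate, before it. Accordingly, the 250 bases upstream of FOXD2 were under a peak in both succinate libraries and in neither control library. The difference was 28.6 percentage points with an SE of 6.40 (limma, adjusted p = 0.711, unadjusted p = 0.0212), and the cover was the same in each library with equal numbers of peaks and at a common floor.

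The remaining members with groups apart rested on weak peaks or on small differences. FOXB1, a gene of the hypothalamus and midbrain, had 58.8 and 0% in control and 60.3 and 59.6% in succinate, so control replicate 2 alone was low. When the numbers of peaks were made equal it had cover in succinate replicate 2 only, at 59.6%. FOXP4, expressed in lung and gut epithelium among many tissues, had 0.211 and 0% in control and 8.55 and 7.22% in succinate. Its difference of 7.78 percentage points (SE 1.69) had the smallest unadjusted p of the members, 0.0194 (limma, adjusted p = 0.711). Its peaks lay at the end of the gene and beyond it, from 41601739 to 41610634 in succinate replicate 1, where the gene ends at 41602384. FOXN1 had 88.3 and 79.5% against 90.8 and 93.6%, a difference of 8.29 percentage points with an SE of 3.79 (limma, adjusted p = 0.785).

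FOXI1, a gene of ionocytes in the ear and kidney, was the member with lower cover in succinate. It had 71.7 and 80.4% in control and 71.7 and 0% in succinate. Control replicate 1 and succinate replicate 1 had the same rounded value, so the difference came from the missing peak of succinate replicate 2. The FOXI1 peak stood at the 64.0 percentile of total signal in control replicate 1, but at the 9.98 percentile in control replicate 2 and the 14.2 percentile in succinate replicate 1, and none passed the common floor. FOXD1, a gene of the kidney stroma and retina, had 100 and 33.1% in control and 100 and 100% in succinate, so that control replicate 2 again differed from the rest and the groups overlapped. FOXI2 and FOXR1 had peaks in control replicate 1 only, at 47.7 and 30.6%. FOXP2, the speech and language gene, had 0.981% there and no peak elsewhere.

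**Figure D3:**
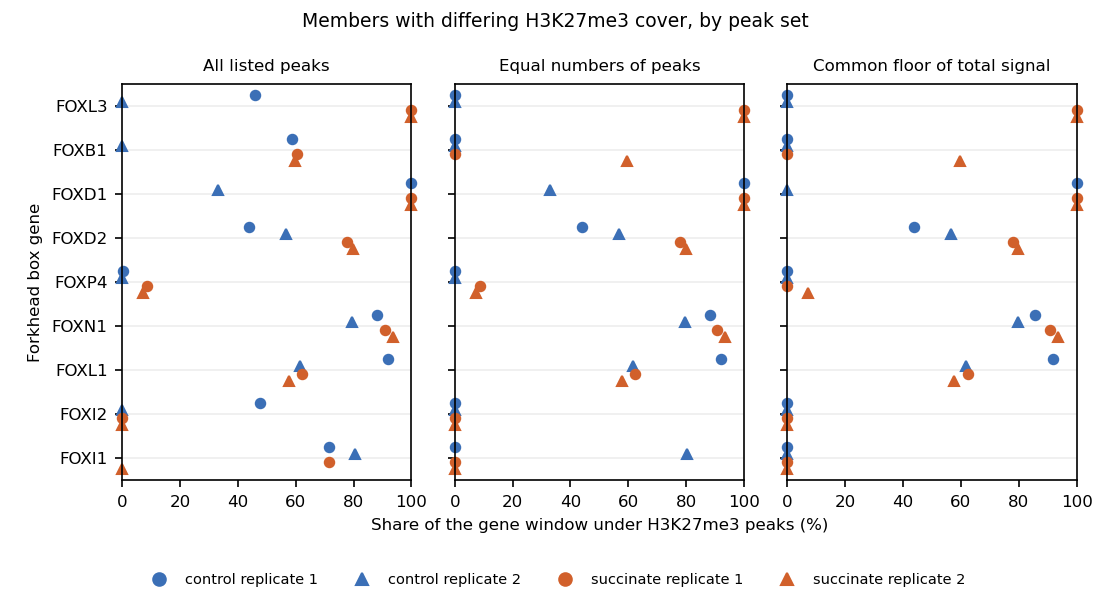
Share of the window under H3K27me3 peaks for 9 FOX genes in each library, using all listed peaks (left), equal numbers of peaks per library (middle) and peaks above a common floor of total signal (right), with blue for control, orange for succinate, circles for replicate 1 and triangles for replicate 2. FOXL3, FOXD2 and FOXN1 keep their succinate points above their control points in all 3 panels, whereas FOXB1, FOXI1 and FOXI2 lose peaks and with them the separation or the value.

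Ksu peaks were narrower and more widespread. They overlapped 15, 38, 33 and 42 of the 45 FOX windows in control replicates 1 and 2 and succinate replicates 1 and 2, where the shares of all windows were 41.5, 84.5, 84.6 and 94.7%. In all 4 libraries there were 14 members (31.1%, against 38.7% of all windows). FOXD4 was the 1 member with no Ksu peak in any library (against 3.43% of all windows). Of FOX window bases, 1.68 and 4.89% were under Ksu peaks in control and 4.97 and 11.0% in succinate, against 2.35, 5.41, 6.60 and 11.9% for all windows. By pooled bases FOX cover was 0.717 to 0.929 times that of all windows in each library. With each window weighted equally, FOX cover came to 1.88, 4.42, 5.10 and 12.3% in the order above, against 1.62, 4.09, 6.02 and 10.9% for all windows. It was then higher than theirs in 3 of the 4 libraries. Whether FOX stood below or above all windows thus depended on the weight of the long windows.

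The FOX log2 cover was higher in succinate by 1.37, with a pooled SD of 0.96, and the groups did not overlap. Set against all windows of the same library the log2 difference came to 0.05 (pooled SD 0.23), and the groups overlapped. The covered length of the Ksu lists moved with treatment in the same way, and its part in the family value was not tested beyond this ratio. With equal numbers of peaks the FOX log2 difference was 0.12, and relative to all windows it was -0.24. Relative to the chromosomes in place of the gene windows it was 0.34, and without the 3 longest FOX windows, relative to all windows, 0.59. The relative value thus had no stable sign or size.

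Both succinate libraries lay above both control libraries for 23 members (51.1%, against 55.7% of all windows) and below them for 1 (against 0.581%). The shares by role were 9 of 12 broadly expressed genes, 7 of 10 mesoderm, vessel and gonad genes, 5 of 7 other restricted genes, 2 of 13 neural, ectodermal and sensory genes and 0 of 3 hepatic genes. Median window lengths of these groups also differed, at 97010, 12907, 19527, 13491 and 15698 bp in that order. The part of window length in these shares was not tested. With equal numbers of peaks 6 members were higher, against 18.8% of all windows, and 3 lower, against 4.99%. At a common floor 2 were higher, against 9.03%, and 0 lower, against 0.2%. The limma fit of 18840 windows included 43 members and called none, against 0.0159% of all windows. With the replicate number as a block, which pairs nothing in the labels, it called FOXF1, FOXL3, FOXN4 and FOXS1 along with 11.6% of windows. At an unadjusted p under 0.05 there were 5 members, FOXS1, FOXN4, FOXF1, FOXL3 and FOXP3, against 14% of windows tested.

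**Figure D4:**
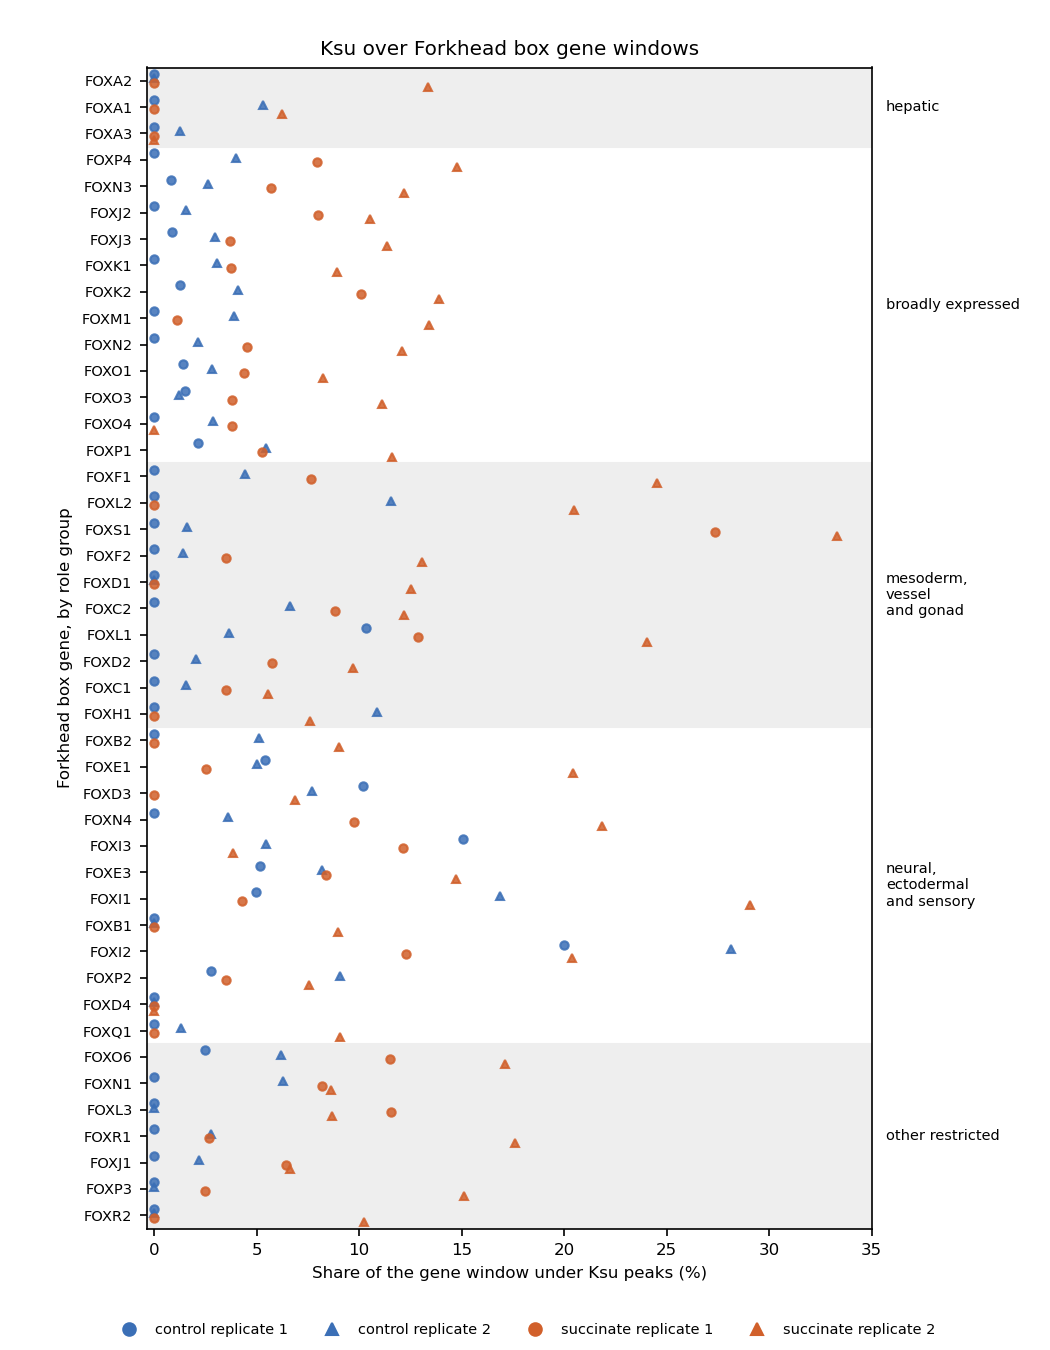
Each row is a FOX gene in the same order as for H3K27me3, and each point is the share of its window under Ksu peaks in 1 library, with the same colours and symbols. Succinate replicate 2, the longest list, is the highest point of most rows, control replicate 1 is at 0 for most genes, and FOXS1 is the row with both succinate points far above both control points.

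FOXS1 had the largest Ksu difference. Its control cover was 0 and 1.59%, its succinate cover 27.4 and 33.3%, from 0 and 1 peak in control and 4 and 6 peaks in succinate. The difference was 29.5 percentage points with an SE of 6.73 (limma, adjusted p = 0.0533). It missed the threshold, and passed it when the variance was not fitted as a trend (limma, adjusted p = 0.0274, with 0.0265% of windows called). With the replicate block it passed as well (limma, adjusted p = 0.000152). On a log2 scale FOXS1 did not pass (limma, adjusted p = 0.242), nor with 10 kb flanks (limma, adjusted p = 0.218). With the 50% of peaks of highest signal its adjusted p was 0.418 (limma). With peaks of at least 500 bp it was 0.288 (limma), and at a common floor 0.638 (limma). Without succinate replicate 1, which leaves a lone succinate library, limma called FOXB1, FOXL3 and FOXR2 and 5.89% of windows. With equal numbers of peaks control cover was 0 and 0%, succinate cover 14.9 and 7.92%. The FOXS1 window lies wholly under H3K27me3 in every library, and it contains part of DUSP15, so the Ksu peaks cannot be assigned to FOXS1 alone. Over the gene body without the flanks, cover was 0% in all libraries but succinate replicate 2, where it was 72.9%.

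The next largest differences were also at genes marked by H3K27me3 in every library. FOXN4 had 0 and 3.62% against 9.75 and 21.9%, a difference of 14.0 percentage points. FOXF1 had 0 and 4.44% against 7.65 and 24.5%, a difference of 13.9. FOXL1 had 10.4 and 3.67% against 12.9 and 24.1%, a difference of 11.5. In these 3 the groups did not overlap, but succinate replicate 2 lay far above succinate replicate 1, and with equal numbers of peaks FOXF1 had no Ksu peak left in any library. FOXL3, whose H3K27me3 differed most, had 0 and 0% Ksu in control and 11.6 and 8.68% in succinate.

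**Figure D5:**
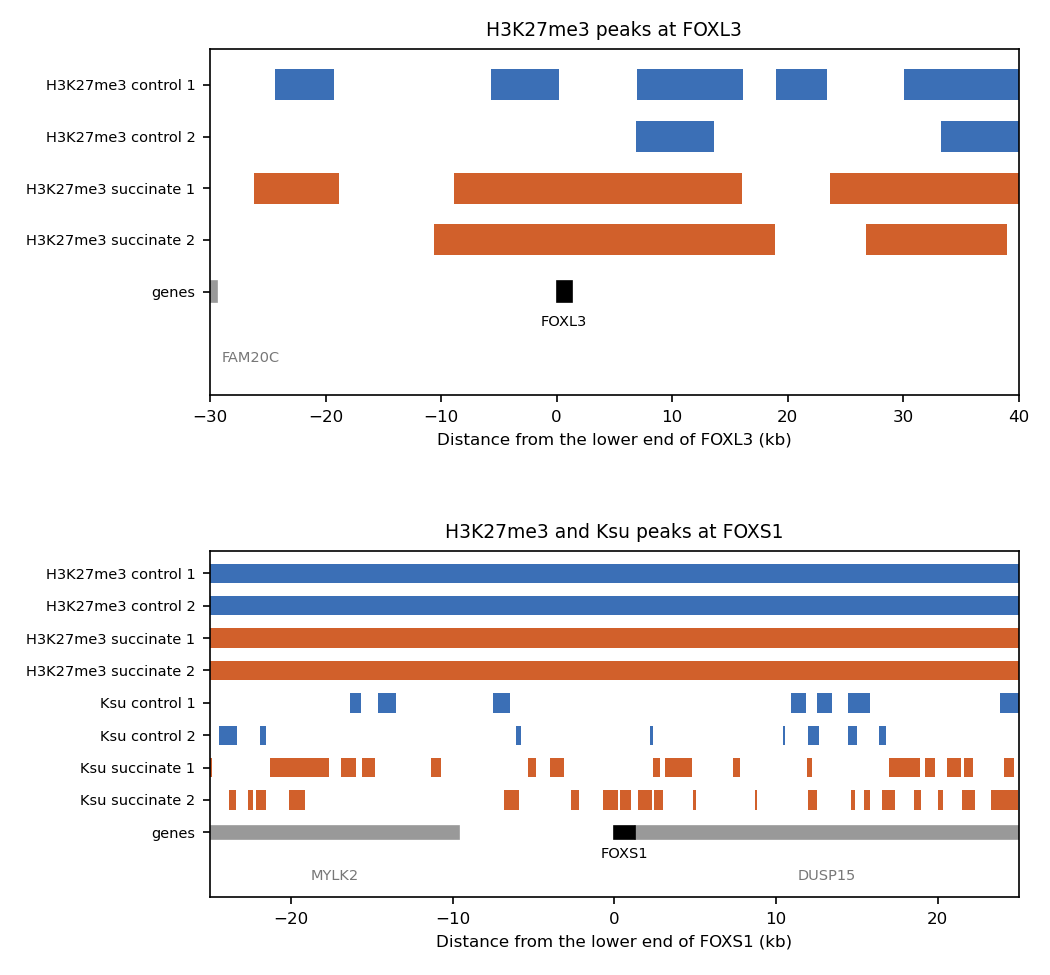
H3K27me3 peaks at FOXL3 (top) and H3K27me3 and Ksu peaks at FOXS1 (bottom), 1 row per library, against the distance in kb from the lower end of the gene, with FOX genes in black and other named genes in grey. The succinate peaks at FOXL3 span 24991 and 29538 bp where control replicate 1 has a peak of 5879 bp and control replicate 2 none before 6.85 kb, and FOXS1 is under H3K27me3 throughout with 4 and 6 Ksu peaks in the succinate windows.

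FOXI2 and FOXD3 had the lowest Ksu differences. FOXI2, a gene of the cranial ectoderm, had the highest Ksu cover of any member in control, 20.0 and 28.2%, against 12.3 and 20.4% in succinate, and the groups overlapped. With equal numbers of peaks FOXI2 kept 20.0 and 18.2% in control and no peak in either succinate library, a difference of -19.1 percentage points with the groups apart. FOXD3 had 10.2 and 7.71% against 0 and 6.87%, and was the only member with both succinate libraries below both control libraries when all peaks were used. FOXI1 had 4.97 and 16.9% in control and 4.28 and 29.1% in succinate, so its replicates differed more than its treatments.

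The FOXA windows held little Ksu, as did the FOX windows up to 50 kb without H3K27me3. FOXA1 had 0 and 5.32% in control and 0 and 6.23% in succinate. FOXA2 had 13.3% in succinate replicate 2 and none elsewhere, and FOXA3 had 1.24% in control replicate 2 and none elsewhere. Both replicate 1 libraries thus had no Ksu peak at any FOXA gene. A Ksu peak lay in 41.5% of all windows for control replicate 1 and in 84.6% for succinate replicate 1. Over bases FOXA had 0 and 2.17% in control and 0 and 5.86% in succinate, against 1.71, 4.94, 5.05 and 11.1% for the other FOX windows. The mean difference was -3.69 percentage points, lower for FOXA in each library, which with FOXA at 0% in both replicate 1 libraries could not be otherwise there. It shrank to -0.771 with equal numbers of peaks and to -0.0787 at a common floor, where few FOX windows keep a Ksu peak. Weighted equally by window, FOXA cover was 0, 2.19, 0 and 6.52% in the same library order. The 12 FOX windows up to 50 kb without H3K27me3, FOXA1 and FOXA3 included, had 0, 2.77, 1.99 and 7.01%. Low Ksu was therefore not particular to FOXA.

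Ksu was also set against H3K27me3 class, using windows up to 50 kb because unmarked FOX windows were longer (median 24273 bp, against 13492 bp for the marked). The 17 members with H3K27me3 in every library had a mean Ksu cover of 2.86 and 4.73% without and 7.17 and 15.2% with added succinate. The 12 members without H3K27me3 had 0 and 2.77% in control and 1.99 and 7.01% in succinate. Marked members were thus higher in each of the 4 libraries. All windows of that size showed the same order, with 2.33, 4.96, 9.14 and 13.6% for the 1817 marked and 1.09, 3.39, 4.71 and 8.95% for the 8966 unmarked, so it was not particular to FOX genes.

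Promoter entries matched 34 of the 45 members. The entries of FOXA2, FOXC2, FOXE3, FOXF1, FOXH1, FOXJ1, FOXL1, FOXM1, FOXN2 and FOXS1 are missing. H3K27me3 peaks overlapped the 250 bases upstream of the start in all 4 libraries for 10 of the 34 (29.4%), against 7.36% of 15812 promoters. All 10 belong to the 12 matched members whose windows were marked in every library, and the other 2 were FOXD1, with 3 libraries, and FOXD2, with both succinate libraries. At least 15 CG dinucleotides were present in 24 of the 34 (70.6%), against 57.1% of all promoters, and the median was 24 against 17. Within FOX the median was 24 for the members marked in every library and 27.5 for the unmarked, so CG number did not separate them. FOXK1 had the most, 44. FOXP2 had 0, but its entry (chromosome 7, 114414565 to 114414814) lies inside the gene, which begins at 114086327. The bases upstream of that beginning were not read. A forkhead core motif, TGTTTAC or its reverse complement GTAAACA, was in none of the 34 promoters and in 2.33% of all promoters, which says only that these letters are not in this window. Ksu peaks overlapped few of the 34: FOXO6 in control replicate 1, FOXO4 in control replicate 2 and FOXE1 and FOXN3 in succinate replicate 2.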

How the data were processed

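The authors deposited a separate peak list for each library, with no list from pooled replicates. Per the submitters' processing notes the genome build was hg38 and the caller SEACR, and the deposited file names give its stringent mode. The aligner, the scaling, the control track and the threshold are not given in the sources used here. Each deposited list holds the authors' coverage signal per peak (total and highest), in which 100% of the highest values were whole multiples of a library's own step (tolerance 0.02). Signal was ranked only within a list. Depth is unknown, so no counting interval is given.

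Gene windows came from the RefSeq table of GRCh38.p14. A peak counted when it overlapped by 1 bp or more, and cover was the share of bases under peaks. Covers were compared with limma 3.58.1 in R 4.3.3 (empirical Bayes with a variance trend) over windows with a mean cover of at least 1%. Benjamini-Hochberg adjustment was used, at 0.05. The fit was also run on simulated normal values. Unlike cover these have no bounds, so that run does not show how the fit behaves on cover. With 2 libraries against 2, "groups apart" means that no library of one treatment lay within the range of the other. Pooled SD is the root mean of both variances. Values by role, for FOXA, for members with peaks in 1 to 3 libraries, for the 8 with the highest cover and for the largest differences were given by rule. FOXD2, FOXP4, FOXC1, FOXC2 and Ksu at FOXI1 and FOXL3 were added after their values were seen, as were the 50 kb limit and the points in which the FOXA Ksu contrast is given, planned as a log2 ratio but undefined where FOXA has no Ksu peak. The members and lists were chosen with earlier results of these data known. The alternatives tried were other flanks, the 50% of peaks with the highest signal, equal numbers of peaks (5531 and 76702), a common floor, leaving out libraries singly, and a replicate block. Results for some single genes are not reported here.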

Additional observations from a re-analysis of the deposited data

How the results depend on the processing

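Over 8 results, 84 of 119 alternative values kept their direction and moved by less than the pooled SD (counts by less than 1.5 times), which still allows large relative changes. Another 30 moved further and 5 changed sign. The family differences under the replicate block are among the 84, and could not differ from the main values. The count of 17 members marked in all 4 libraries stayed between 12 and 20 under every alternative tried. With a library left out it was 17 to 20, where it could not fall because fewer libraries had to hold a peak. The H3K27me3 family difference (0.462 points) was 0.0148 for gene bodies, 0.0858 and 0.693 with 1 and 10 kb flanks, -0.00150 with the 50% of peaks of highest signal, 1.34 with equal numbers, 1.60 at a common floor, 2.15 as a mean over windows, 1.24 without the 3 windows over 400 kb (chosen after seeing the data) and -0.232 to 1.16 with a library left out. The Ksu family log2 difference was 0.12 with equal numbers and 0.60 to 2.14 with a library left out. Relative to all windows it was -0.24 with equal numbers, 0.34 against the chromosomes, 0.59 without the long windows and -0.11 to 0.22 with a library left out, being -0.11 without control replicate 1 and -0.10 without succinate replicate 2. Both Ksu log2 values could not be computed at a common floor, where 1 library has no Ksu in FOX windows. FOXA minus other FOX for H3K27me3 was -4.82 for gene bodies, -5.88 and -9.73 with 1 and 10 kb flanks, -7.71 with the 50% of peaks, -8.22 with equal numbers, -7.91 at a common floor, -37.4 over windows, -20.9 without the long windows and -9.31 to -8.88 with a library left out. For Ksu it was -5.61, -5.39 and -2.83 with those flanks, -2.30 with the 50% of peaks, -0.771 with equal numbers, -0.0787 at a common floor, -2.13 with peaks of at least 500 bp and -4.35 to -3.18 with a library left out.

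Limma calls for H3K27me3 (0 members) were 1 with equal numbers and 1 at a common floor (FOXL3 in both), and 0 to 6 with a library left out: 1 without control replicate 1 (FOXD1) and 6 without control replicate 2 (FOXD2, FOXF2, FOXI2, FOXL3, FOXO6 and FOXR1, against 20.3% of windows). A lone control library is then assumed to vary like the succinate ones. For Ksu (0 members) they were 1 without a trend (FOXS1), 4 with the replicate block (FOXF1, FOXL3, FOXN4 and FOXS1, against 11.6% of windows) and 0 to 3 with a library left out (FOXB1, FOXL3 and FOXR2 without succinate replicate 1). The replicate numbers pair nothing in the labels. Deviations of same-numbered libraries correlated at 0.26 across windows for H3K27me3 and 0.097 for Ksu. With the block no member was called for H3K27me3. In this balanced design a block cannot change the family differences, so their values of 0.462 points and 1.37 were fixed in advance. Of 150 values for single members, 7 changed sign: FOXA3 Ksu (1.38), FOXD3 Ksu (1.84) and FOXI2 Ksu (0.415) with 10 kb flanks, FOXI2 Ksu for the gene body (0.325), FOXL1 Ksu at a common floor (-0.847), and FOXB1 (-29.4) and FOXE1 (-3.30) H3K27me3 with the 50% of peaks. These settings for single members were chosen after seeing the data. Depth limits all of this, since a window without a peak can be a window below the floor of its list.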

Other observations

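Genes just outside the naming rule were read in the same way. FOXD4L1, FOXD4L3, FOXD4L4, FOXD4L5 and FOXD4L6, the near-identical copies of FOXD4, had no H3K27me3 peak and no Ksu peak in any library. FOXO3B, a copy of FOXO3 on chromosome 17, had no H3K27me3 peak and a Ksu cover of 4.41% in succinate replicate 2 only. Reads from near-identical copies may be left unplaced, so empty windows in these genes are uncertain.

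CEBPB, a liver transcription factor of the acute-phase response, had no H3K27me3 peak in control replicate 1, 17.5% cover in control replicate 2 and 33.2 and 40.7% in succinate, so the groups did not overlap.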
